A study of Caenorhabditis elegans with 2 samples.

Results

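The genes described are the 8 core genes of the TGF-beta pathway that sets body size in Caenorhabditis elegans: dbl-1, daf-4, sma-6, sma-2, sma-3, sma-4, sma-9 and lon-2, of 19973 nuclear protein-coding genes in all. They were taken by name, with earlier results of these data known, so a peak at a named gene is not independent of that choice. Every peak with its summit between 5 kb upstream of a gene and 1 kb downstream of it, introns included, was assigned to that gene. The peaks come from a ChIP-seq experiment, in which DNA bound by a tagged protein is pulled down and sequenced. The samples were 2 biological replicates of 1 group, with no comparison group. Both were whole second-stage (L2) larvae of both sexes from strain OP86, carrying unc-119(ed3) on chromosome III and the transgene wgIs86, with an eGFP fusion of the DNA-binding protein PEB-1 as the target. The labels do not give the promoter or the copy number of the transgene, and a signal from whole larvae does not tell in which cells the protein was bound.

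In this pathway the BMP-like ligand DBL-1 binds a type II receptor, DAF-4, and a type I receptor, SMA-6. The receptors activate the Smad proteins SMA-2 and SMA-3, which act in the nucleus with SMA-4. SMA-9, a large zinc-finger protein of the Schnurri family, works with the Smads as a transcriptional cofactor and also patterns the postembryonic mesoderm. LON-2, a cell-surface glypican, holds the ligand back. Loss of the activating genes gives small worms, and loss of lon-2 gives long ones.

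Peaks were read from 4 deposited lists in coordinates of the build ce11. The thresholded list holds the 160 peaks that passed the authors' reproducibility procedure, and the pooled list and the 2 replicate lists hold 30000 candidate peaks each, most of them weak. Signal is the value that the authors deposited for each peak, of unstated measure and scale, and serves only for comparisons within a list. Ranks count from 1 for the strongest peak. The replicates were not alike in their strong peaks. Of the 160 thresholded peaks, 125 overlapped a peak within rank 160 in replicate 1, against 56 in replicate 2. The depth of sequencing is unknown here, and the intervals below cover counting error over peaks only.

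Of the 8 genes, sma-9 alone had a thresholded peak, upstream of all its annotated transcription start sites (TSSs). The other 7 genes had 0 such peaks. Among all protein-coding genes 1.19% had a thresholded summit in the same window, so that 1 of 8 rests on a single gene and says little about the group. The peak of sma-9 (X:10766263-10766618, 356 bp) ranked 43 of 160, with a signal of 55.6, against a list median of 43.7 and a range of 35.4 to 202. On the X chromosome, which carried 61 of the thresholded peaks, 23 ranked above it.

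The sequence around the summit of this peak is shown because sma-9 is the only one of the 8 genes to reach the thresholded list. The stretch starts within the peak, runs past its end and covers a second pooled summit 201 bp closer to the gene. Next to it stands the strongest pooled peak of daf-4, the second gene in rank, for comparison. Capitals mark either strand of GAGAGA, or of a 6-letter core of the reported PEB-1 consensus, which is TGCC with A, G or T before it and A or G after it. Both sequences are read on the plus strand, on which both genes also lie.
sma-9 upstream, ce11, X:10766392-10766691: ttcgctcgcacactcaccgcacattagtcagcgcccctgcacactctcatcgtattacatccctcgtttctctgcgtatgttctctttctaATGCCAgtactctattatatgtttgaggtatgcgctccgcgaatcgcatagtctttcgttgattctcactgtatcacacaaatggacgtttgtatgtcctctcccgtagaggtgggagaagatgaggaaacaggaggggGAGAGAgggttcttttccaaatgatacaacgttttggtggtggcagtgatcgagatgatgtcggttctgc
daf-4 upstream, ce11, III:5622389-5622539: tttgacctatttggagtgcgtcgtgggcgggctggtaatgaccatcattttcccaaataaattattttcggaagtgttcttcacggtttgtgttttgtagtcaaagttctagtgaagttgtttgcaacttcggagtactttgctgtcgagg
The sma-9 stretch, with a GC content of 48.0%, held 1 match to the core, starting 42 bp to the right of the first summit, and 1 match to GAGAGA, starting 20 bp to the left of the second summit. The GAGAGA match starts at X:10766622, just past the end of the thresholded peak at X:10766618, in the second pooled peak. Pooled peaks of these genes are all 356 bp wide, so that end is not a measured edge. The overlapping replicate 1 peak of rank 49 (X:10766275-10766638) contains the match. In replicate 2 the peak of rank 394 (X:10766259-10766622) ends at the first letter of the match, and the peak of rank 438 (X:10766470-10766833) contains it. Replicate peaks of these genes are all 364 bp wide, so their ends are not measured edges either. The daf-4 stretch, with a GC content of 42.4%, held neither. It is 151 bp long and covers 1 summit, against 300 bp for sma-9, so the counts of matches are not of like lengths. A match is a description of letters and does not mark a binding site.

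The sma-9 gene (X:10769282-10782973, plus strand, 13692 bp) has 6 annotated TSSs, and the thresholded summit at X:10766441 lay 2841 bp upstream of the first. Its distances to the other TSSs were 2847, 6640, 6650, 7558 and 11461 bp, always on the upstream side. The summit was in intergenic sequence, in a gap of 11573 bp between sma-9 and R07A4.4, a gene on the other strand whose nearest TSS was 8733 bp away. The nearest TSS of any class belonged to the non-coding RNA gene T05A10.8, at 2431 bp. No other protein-coding gene had this summit in its window. The peak was therefore distal to every annotated sma-9 promoter, yet closer to sma-9 than to any other protein-coding start.

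The upstream peak of sma-9 recurred in both replicates, at different ranks. It overlapped the peak of rank 49 in replicate 1, with a signal of 39.3, and the peak of rank 394 in replicate 2, with a signal of 13.8. The summits of the replicates lay 16 bp and 0 bp from the pooled summit. Its place was thus the same in both lists, but in replicate 2 it fell outside the highest 160 peaks. Among the 160 thresholded peaks, 48 had a higher rank than this one in replicate 1 and 69 had one in replicate 2. The median ranks of the thresholded peaks were 84.5 in replicate 1 and 553 in replicate 2, with the 11 peaks that no peak of replicate 2 overlapped counted as lowest there. Of the 149 thresholded peaks overlapped in both replicates, 107 ranked higher in replicate 1, so a lower rank in replicate 2 was common in the list.

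A second peak stood beside the first, and the balance of the pair differed between the replicates. The second pooled summit, at X:10766642, ranked 458 with a signal of 26.7, and the pair of peaks overlapped by 155 bp. In replicate 1 the summit closest to it, 18 bp away, ranked 9486 with a signal of 8.89. In replicate 2 the closest summit, 10 bp away, ranked 438 with a signal of 13.6. The second peak thus had 0.226 times the signal of the first in replicate 1, 0.986 times in replicate 2 and 0.479 times in the pooled list. With 1 value per replicate there is no test of this difference. The map of peaks around sma-9 shows the pair in the 3 lists.

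**Figure D1:**
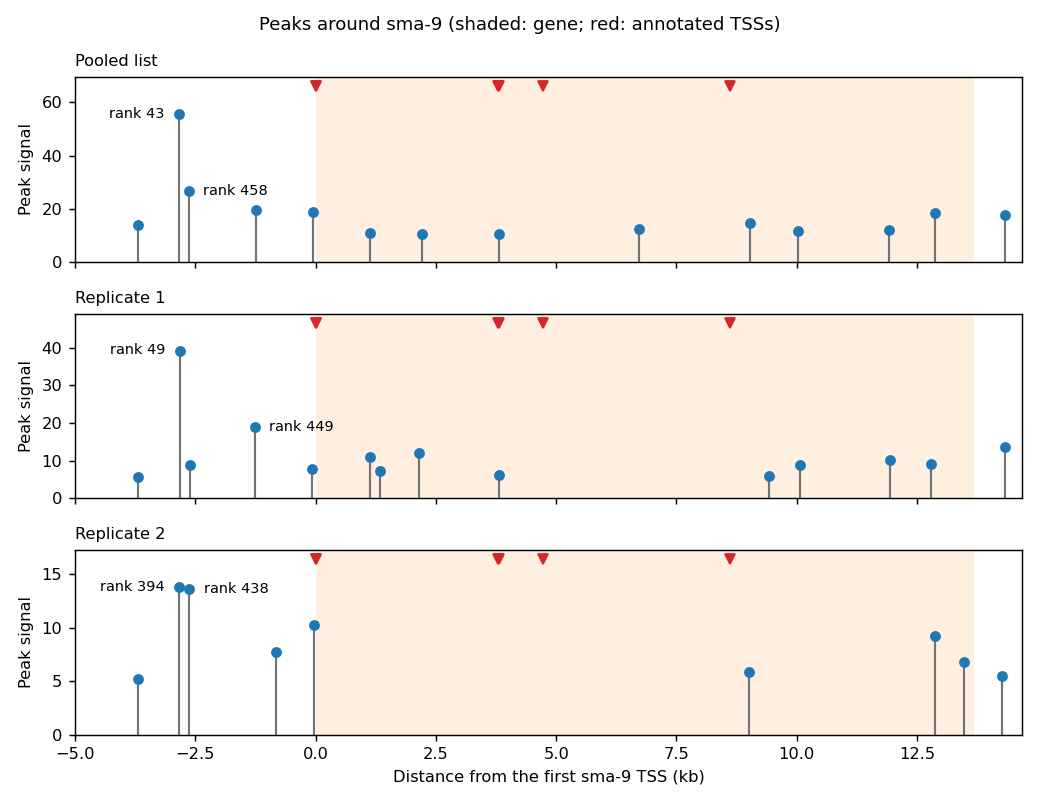
Signal of every peak with its summit in the window of sma-9, by distance from the first TSS in kb, in the pooled list, replicate 1 and replicate 2 (each with its own signal scale from 0). The shaded span is the gene and red marks are the 6 annotated TSSs. The pair of summits upstream of the gene is highest in the pooled list (ranks 43 and 458) and in replicate 2 (394 and 438), while replicate 1 has the first at rank 49 and a peak nearer the gene at rank 449.

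Other peaks of sma-9 were weaker, and few of them fell at its promoters. The window of 19.7 kb held 14 pooled peaks, 14 of replicate 1 and 9 of replicate 2. Of the pooled ones, 5 lay upstream of the first TSS and 6 ranked within 5000. The peak 1247 bp upstream ranked 2224 in the pooled list and 449 in replicate 1, and no peak of replicate 2 overlapped it. The peak closest to the first TSS, 65 bp upstream, ranked 2796 with a signal of 18.8, and it ranked 14322 in replicate 1 and 2997 in replicate 2. At the internal promoters, the pooled summit 4 bp from a TSS ranked 25488 and the one 398 bp from the last TSS ranked 8768. The strongest signal thus lay at neither the first promoter nor the internal ones. At the 3′ end, the pooled peaks of ranks 3048 and 3827 had their nearest protein-coding TSS in clc-4, the neighbouring gene, at 1775 and 308 bp.

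The ligand gene dbl-1 (V:6758135-6760418) had 3 pooled peaks, all weak. Its best pooled peak had a signal of 17.1 and ranked 4449, with the summit in a coding exon 205 bp downstream of its single TSS. Its replicate ranks were 13194 (replicate 1) and 16356 (replicate 2). The other pooled summits lay 3250 and 1166 bp upstream, close to the starts of the non-coding RNA genes T25F10.7 and T25F10.9, at 12 and 207 bp from them. A peak of replicate 1 alone overlapped each of these, of rank 3638 and 14900.

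The receptor genes differed in rank, with daf-4 second among the 8 genes. The gene daf-4 (III:5625135-5632323, 6 TSSs), for the type II receptor, had 7 pooled peaks. The best had a signal of 22.8, rank 933, and a summit at III:5622464, 2671 bp upstream of the first TSS in intergenic sequence. Its nearest start of any class was that of the non-coding RNA gene C05D2.13, at 906 bp. It overlapped peaks of rank 2453 in replicate 1 and 4779 in replicate 2. The signal was 0.410 times that of the sma-9 peak in the same list and was below the lowest thresholded signal. A further upstream peak, 3635 bp from the first TSS and 10 bp from the start of C05D2.13, ranked 3383 in the pooled list. It ranked 8662 in replicate 1 but 559 in replicate 2, where the summit lay 124 bp closer to daf-4. The order of the pair of upstream daf-4 peaks was therefore opposite in the 2 replicates. At the first TSS itself a pooled summit of rank 14899 lay 29 bp from a start, and no replicate peak overlapped it.

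The type I receptor gene sma-6 (II:6324484-6327355) had 4 pooled peaks, the best of rank 10001 with a signal of 14.3. That summit lay 4211 bp upstream of sma-6, in a coding exon of efr-3 and 828 bp from the efr-3 TSS, so it is nearer to another gene. It overlapped a peak of rank 2792 in replicate 2 and none in replicate 1. A summit in a coding exon of sma-6, 2423 bp past its TSS, ranked 10678 in the pooled list and 3200 in replicate 1, with no overlap in replicate 2. The best peak of sma-6 thus had a different position in each replicate.

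None of the 3 Smad genes had a pooled peak within rank 1000, and the best of sma-3 was the lowest-ranked of the 8 genes. The single pooled peak of sma-2 (III:8749680-8757089) had a signal of 17.2 and rank 4317, with replicate ranks of 7923 and 7950, but it lay 3866 bp upstream and nearer to ZK370.6, at 1968 bp. The gene sma-3 (III:6860974-6863968), for the other receptor-regulated Smad, also had 1 pooled peak, of rank 23569 with a signal of 10.9, 1030 bp upstream of its TSS. A peak of replicate 1 overlapped it, of rank 15363, and none of replicate 2 did. The best replicate peaks of sma-3 lay elsewhere. That of replicate 2 ranked 7378, in an intron 234 bp past the TSS. That of replicate 1 ranked 10146, nearer to clec-158. The co-Smad gene sma-4 (III:5816232-5820204) had 3 pooled peaks, of ranks 7051, 10503 and 18537. The first was in an intron of sma-4, 1042 bp upstream of its last TSS, and ranked 19968 in replicate 1 and 5034 in replicate 2. The last, 285 bp past a TSS in a coding exon, ranked 1544 in replicate 1, and no peak of replicate 2 overlapped it. Replicate 2 had a peak of rank 5494 at 101 bp upstream of the first sma-4 TSS.

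The inhibitor gene lon-2 (X:4738964-4749083, minus strand) had 3 pooled peaks in a window of 16.1 kb. The best, with a signal of 17.8 and rank 3630, had its summit in a coding exon near the 3′ end, 8563 bp past the only TSS. The nearest protein-coding TSS was that of aman-1, at 7425 bp, and the nearest of any class that of the non-coding RNA gene C39E6.12, at 338 bp. The lon-2 peak overlapped peaks of rank 14068 in replicate 1 and 2961 in replicate 2. The remaining summits, 4208 and 3287 bp upstream, were nearer to C39E6.2 and overlapped peaks of replicate 2 only. No pooled summit lay closer than 3287 bp to the lon-2 TSS.

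**Figure D2:**
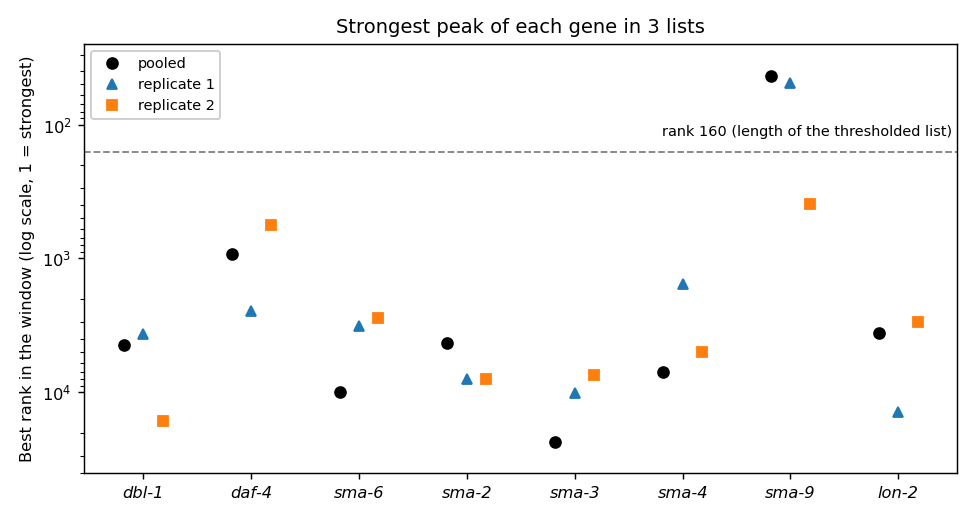
Best rank of a peak in the window of each gene (log axis, strong peaks at the top) in the pooled list, replicate 1 and replicate 2. The dashed line is rank 160, the length of the thresholded list. The pooled and replicate 1 ranks of sma-9 (43 and 49) are the only points above the line.

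Over the group, 1 gene had a summit within the highest 160 peaks of replicate 1 (sma-9) and 0 had one in replicate 2, where 1.18% and 1.23% of all protein-coding genes did. Within rank 1000 of the pooled list lay peaks of sma-9 and daf-4, 2 of 8 genes, against 7.44% of protein-coding genes. In replicate 1 the gene within rank 1000 was sma-9 (1 of 8, against 7.65%), and in replicate 2 these were sma-9 and daf-4 (2 of 8, against 8.25%). All 8 genes had a pooled peak of some rank, as did 91.6% of protein-coding genes, so the presence of a candidate peak alone does not set them apart. Of protein-coding genes, 0.270% had a pooled peak ranked as high as that of sma-9, and 6.93% one as high as that of daf-4. For lon-2, sma-2 and dbl-1 these shares were 26.2%, 30.6% and 31.4%, and for sma-4, sma-6 and sma-3 they were 44.5%, 56.5% and 86.1%. In the pooled list, then, sma-9 ranked first and daf-4 second, and each of the other 6 genes had a best rank that at least 26.2% of protein-coding genes reached.

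The length of the windows bears on these counts. The median window was 11.6 kb for the 8 genes and 8.03 kb for all protein-coding genes, and 5 of the 8 windows, sma-9 and daf-4 included, were among the longest 25% of all windows. Of genes with windows that long, 9.63 kb and more, 2.14% of genes had a thresholded summit and 12.5% a pooled summit within rank 1000. Per length, the 8 genes had 3.65 pooled peaks per 10 kb of window, and all protein-coding genes 3.01. Without sma-9 the other 7 genes had 2.79 per 10 kb. For peaks within rank 5000 the densities were 1.12 per 10 kb for the 8 genes, 0.634 without sma-9 and 0.497 for all protein-coding genes. Most of the difference from other genes within rank 5000 thus came from sma-9.

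The 36 pooled peaks of the 8 genes had signals of 10.6 to 55.6 with a median of 12.9, and the median of the whole pooled list was 12.8. Their summits lay in coding exons in 15 cases and in intergenic sequence in 14. A further 5 were in introns, 1 was in a 5′ UTR of R12B2.7, next to sma-4, and 1 in a non-coding exon (C05D2.11, inside daf-4). The coding share was 41.7% (95% exact binomial (Clopper-Pearson) interval 25.5 to 59.2), against 29% of all pooled peaks and 3.13% of thresholded ones (interval 1.02 to 7.14). The interval of the 8 genes holds the share of all pooled peaks, and the thresholded share was below both. The member had the nearest protein-coding TSS for 25 of the 36 summits, and 7 summits, from 5 genes, lay within 500 bp of a TSS of the member. No share over all pooled peaks or all genes was set beside these counts. They therefore do not show whether the 8 genes differ from others.

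**Figure D3:**
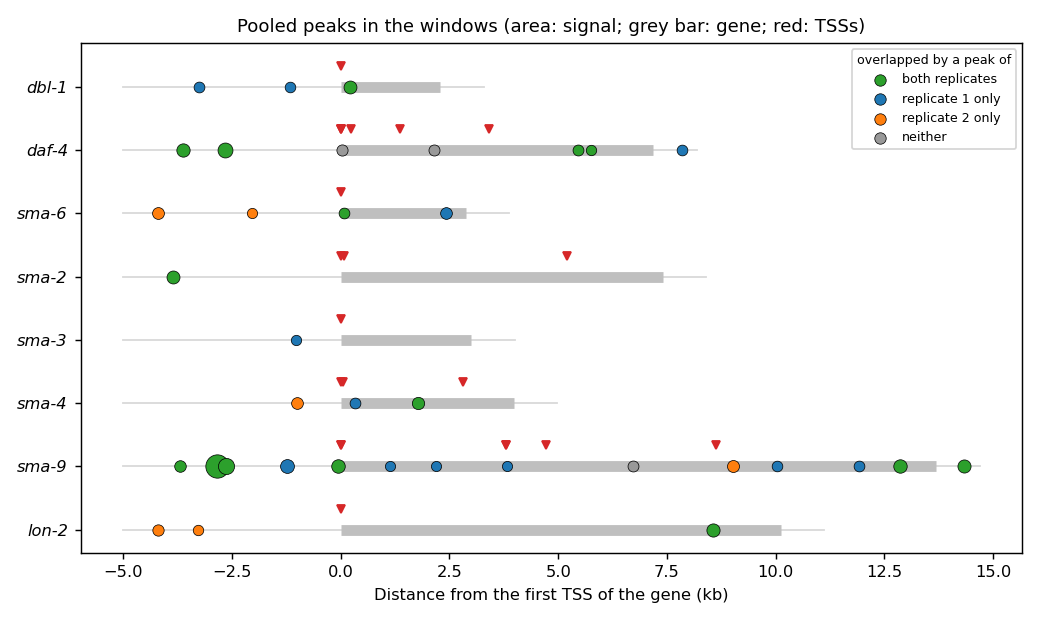
All 36 pooled peaks by distance from the first TSS of their gene in kb, with the area of each circle proportional to signal. Grey bars are genes, red marks are TSSs, and colours say which replicate has an overlapping peak. The largest circle, at sma-9, lies 2841 bp upstream of the gene, and most of the small ones are of 1 replicate or lie inside genes.

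More of the stronger candidate peaks than of the weak ones had an overlapping peak in both replicates. The pooled list was itself called from both replicates, so such overlap is not independent agreement. Ranks could also differ widely, as for the sma-9 peak of pooled rank 3827, which overlapped peaks of rank 1462 in replicate 1 and 26882 in replicate 2. A peak of both replicates overlapped 15 of the 36 pooled peaks (41.7%, interval 25.5 to 59.2), against 34.2% of all 30000 pooled peaks. Replicate 1 alone overlapped 12, replicate 2 alone 6, and neither 3. Of the 11 peaks within rank 5000, both replicates overlapped 10 (90.9%, interval 58.7 to 99.8), against 75.5% of all pooled peaks of those ranks. The exception was the sma-9 peak 1247 bp upstream. Of the 15 peaks found in both, 6 had the higher rank in replicate 1 by the strongest overlapping peak, against 107 of the 149 thresholded peaks found in both. Neighbouring pooled peaks of sma-9 and of daf-4 can overlap the same replicate peak. With the closest summit where one lay within 100 bp, and else the strongest overlapping peak, the count was 5 of the 15. The second peak of the sma-9 pair then had the higher rank in replicate 2. Only 10 of the 36 pooled peaks had a summit within 100 bp in both replicates.

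**Figure D4:**
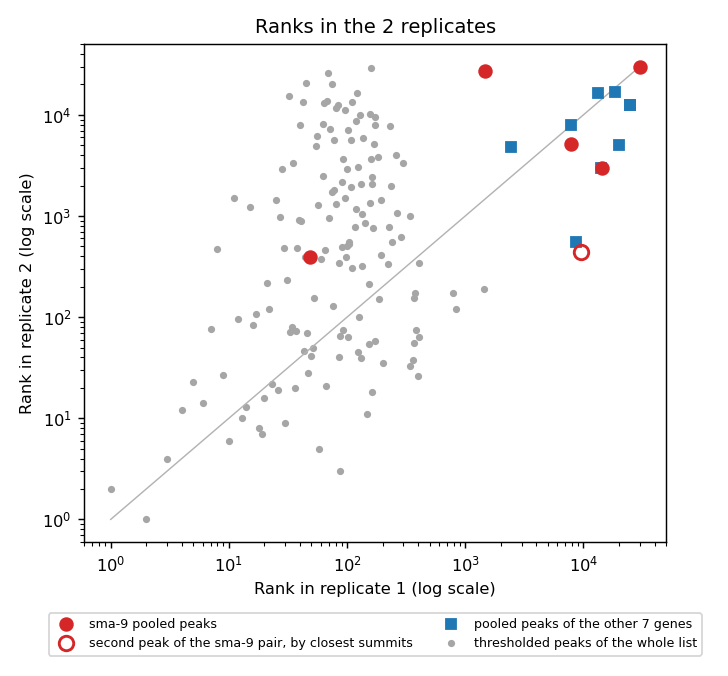
Rank in replicate 1 against rank in replicate 2 (both axes logarithmic) for pooled peaks of sma-9 (red), of the other 7 genes (blue) and for the thresholded peaks (grey) that overlap a peak in both lists; the line marks equal ranks. The thresholded sma-9 peak, at ranks 49 and 394, lies among the thresholded peaks, the open circle is the second peak of the pair at the ranks of its closest summits (9486 and 438), and the peaks of the other 7 genes lie at ranks of 559 and weaker in both replicates.

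At the summits of these peaks, the share with either motif had an interval that held the share of all pooled peaks. Within 100 bp of the summit, the 6-letter core stood at 12 of 36 member peaks (33.3%, interval 18.6 to 51.0), at 65% of thresholded peaks (interval 57.1 to 72.4) and at 35.2% of all pooled peaks. GAGAGA stood at 9 of 36 (25%, interval 12.1 to 42.2), at 57.5% of thresholded peaks (interval 49.4 to 65.3) and at 13.5% of all pooled peaks. For both motifs the thresholded share was above that of the 8 genes and that of all pooled peaks. Mean GC content of these windows was 40.3% for the 8 genes, 50.1% for thresholded peaks and 37.7% for all pooled peaks. The thresholded sma-9 summit had 1 core match and 0 of GAGAGA, and its GC content of 47.8% was above that of the daf-4 summit (40.8%), which had neither.

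Beyond the 8 genes, 25 other genes of TGF-beta signalling were examined by the same rule. They were ligands, receptors, Smads and cofactors, those of the dauer branch among them, modulators at the cell surface, and genes that act on body size downstream. None had a thresholded summit, against 1.19% of protein-coding genes. Of the 25, 6 had a pooled summit within rank 1000, against 7.44%, and 17 of the 25 windows were among the longest 25%. The highest was kin-29, a kinase gene of the SIK family needed for normal body size, with a peak of rank 231 (X:2852575-2852930, signal 31.6) 315 bp upstream of its TSS. It ranked 120 in replicate 1 and 7271 in replicate 2. The next was lon-3, a cuticle collagen gene whose loss gives long worms, with a peak of rank 319 (V:12198565-12198920, signal 29.1) 98 bp upstream. It ranked 5822 in replicate 1 and 104 in replicate 2, the opposite order. The third was tsp-21, a tetraspanin gene that promotes this signalling, with a peak of rank 333 (X:9932487-9932842, signal 28.7) in an intron 294 bp past its TSS, ranked 490 and 2119 in the replicates. These 3 peaks lay within 500 bp of a TSS, and all 3 were weaker than the thresholded peaks. The others within rank 1000, named after their values were seen, were farther from a TSS of their gene. They were the Smad gene daf-3 (rank 450, 2200 bp), daf-5, which encodes a Ski-like cofactor (rank 497, 5788 bp), and egl-4, which encodes a cGMP-dependent protein kinase (rank 737, 1796 bp). The daf-3 summit was intergenic but nearer to wdr-54, at 1228 bp, and those of daf-5 and egl-4 lay in introns of their own genes. A best peak far from a TSS of its gene was therefore not particular to sma-9. Among the 8 genes, the best daf-4 peak also lay in intergenic sequence upstream of all TSSs of its gene, with daf-4 the nearest protein-coding gene.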

How the data were processed

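ChIP-seq of eGFP-tagged PEB-1 was analysed from deposited peak lists. Per the accompanying file listing, the authors called candidate peaks for each replicate and for both pooled, each with a control file, as input to the irreproducible discovery rate procedure, and derived the thresholded list from those 3. The sources used here name no aligner, peak caller, version or threshold. Column 7, the signal as deposited, ranked the peaks. Column 9, a −log10 q-value by format, is below 0 for 29058 pooled peaks, so it was treated as a score, deposited by the authors, that broke ties only. The 160 thresholded peaks are the 160 highest-ranked pooled peaks. Lists in ce10 coordinates, signal tracks and the possible control were not used here.

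Positions are ce11 (WBcel235), 1-based. Genes and TSSs came from Ensembl release 115, and sequences from the RefSeq genome of that assembly, in Python 3.11.15 with pandas 2.3.3 and scipy 1.17.1. Overlap means at least 1 bp. Location was classed in the order coding exon, 5′ UTR, 3′ UTR, non-coding exon, intron, intergenic. Window, promoter and overlap functions were checked on simulated peaks. With 1 group of 2 replicates, whose spread may be technical, no test was made. Results are counts beside the share of all nuclear protein-coding genes, with 95% Clopper-Pearson intervals.

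The members, lists and motifs were chosen with earlier results of these data known. Named were all 8 members with their thresholded and best pooled peaks, the genes nearest those summits, and, of 25 other pathway genes, the 3 with the best pooled rank, since none had a thresholded summit. Other member peaks in the text were chosen after their values were seen. Alternatives were other windows, rank limits, overlap rules, motif widths, RefSeq TSSs (added after seeing the data) and each replicate alone.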

Additional observations from a re-analysis of the deposited data

How the results depend on the processing

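The count of 1 gene with a thresholded summit depended on the window. It was 0 with a window from 1 kb upstream to 200 bp downstream of any TSS and 0 in the gene body alone, since the sma-9 summit lies 2841 bp upstream. It stayed at 1 with 10 kb upstream, with overlap in place of the summit, with the 80 strongest peaks, and with peaks given to the nearest protein-coding TSS. For these other windows and rules no share of all protein-coding genes is given, so the counts describe only where the sma-9 peak lies. Among the 1000 highest pooled peaks the count was 2, against 7.44% of protein-coding genes. With the 160 highest peaks of a single replicate it ranged from 0 (without replicate 1) to 1 (without replicate 2). The shares of protein-coding genes there were 1.23% and 1.18%. In replicate 2 the sma-9 peak ranked 394, outside that limit.

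Among the highest 5000 peaks the windows held 11 pooled peaks, 9 of replicate 1 and 7 of replicate 2, against 36, 39 and 34 in the full lists. The share of the 36 pooled peaks overlapped by both replicates, 41.7% in the report, was 33.3% with overlap of at least 50% and 27.8% with summits within 100 bp. Over all pooled peaks these shares were 34.2%, 26.4% and 19.2%. For the 11 within rank 5000 it was 90.9% with the report's rule, 90.9% with at least 50% overlap and 72.7% with summits within 100 bp. All pooled peaks within rank 5000 had 75.5%, 69.7% and 57.7%. The core motif stood at 13.9% of the 36 summits within 50 bp and at 58.3% within 200 bp, against 19.8% and 56.1% of all pooled summits. GAGAGA stood at 5.56% and 36.1%, against 7.25% and 23.6%. Wider stretches hold more matches by construction. With RefSeq TSSs, 1 gene (dbl-1) had its best summit within 500 bp of its start, as with Ensembl. No paired analysis was possible because there was 1 group. Depth is unknown, so no floor can be given for genes without a thresholded peak.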

Other observations

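Of the 25 genes of the wider pathway list, 4 had a peak within rank 1000 in replicate 1 and 4 in replicate 2. The shares of protein-coding genes were 7.65% and 8.25%, and 17 of the 25 windows were among the longest 25%. Beyond the genes named by the rule, daf-7 and crm-1 are described, chosen after their values were seen. They are not the only genes whose best ranks differed between the replicates. The best rank of unc-40 was 404 in replicate 2 and 4394 in replicate 1, but at different summits (I:5683285 and I:5694982). The best pooled peak of unc-40, of rank 5361, overlapped peaks of rank 7365 in replicate 1 and 27789 in replicate 2. The best peak of daf-7, the ligand gene of the dauer branch, ranked 1033 in the pooled list, 330 in replicate 2 and 14798 in replicate 1, with the pooled summit in its coding exon 448 bp past the TSS. The best pooled peak of crm-1, which encodes a secreted cysteine-rich modulator of BMP-type signalling, ranked 1561, lay 205 bp upstream of the TSS in a non-coding exon (K07C5.15), and ranked 204 in replicate 1, while no peak of replicate 2 overlapped it. What sets the replicates apart at these genes was not tested.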
